A study of Mus musculus with 18 samples.

Results

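The proteasome is represented on the arrays by 48 genes, whose symbols start with *Psma*, *Psmb*, *Psmc*, *Psmd*, *Psme*, *Psmf* or *Psmg* followed by a number. *Psmb8* and *Psmb9* were set apart and are not described. The 48 genes are among 19937 genes that have a probeset with a single symbol, and each is represented by its brightest probeset. They comprise 8 genes of the alpha ring and 9 of the beta ring of the 20S core, 6 ATPases and 11 other subunits of the 19S regulatory particle, 3 chaperones of the 19S base, 4 chaperones of the 20S core and 5 activators or inhibitors. The other 2, *Psmc3ip* and *Psme3ip1*, are matches by name that encode no subunit and are shown apart.

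The proteasome is the protease that degrades proteins tagged with ubiquitin. Its core is a barrel of alpha and beta rings with the cutting sites inside, and the regulatory particle on its end binds ubiquitin, removes it, and unfolds the substrate with a ring of ATPases. In neurons it turns over synaptic and regulatory proteins, among them proteins of the circadian clock, and its genes are known to be induced together when its activity falls short.

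Hypothalamic RNA of 18 male mice had been measured on Mouse Gene 1.0 ST arrays of Affymetrix, 1 array for each mouse. The inbred Schlager hypertensive strain BPH/2J and its normotensive control BPN/3J were each sampled at ‘peak’ BP in the active period (26 weeks of age, 6 mice per strain) and at ‘trough’ BP in the inactive period (3 mice per strain). The ‘trough’ mice were aged 18 weeks by the sample labels and 19 weeks by its design text, and time of day and age cannot be told apart. The labels name no transgene and no agent, and the tissue was a dissection of the paraventricular and dorsomedial regions by the study's methods. For the BPN/3J ‘trough’ mice the strain label reads BPH/2J, and the title was followed.

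All values are deposited RMA values on the log2 scale, and all differences are log2 differences from 1 limma model of the 4 groups, given with their SE. A gene passed at a p under 0.05 after Benjamini-Hochberg adjustment over all 34760 probesets. The median log2 value of an array lay between 6.17 and 6.42. BPN/3J ‘peak’ mice 10 and 11 had the lowest mean correlations with their own group, 0.979 and 0.967, against 0.981 to 0.992 for the other arrays. Of the members, 43 had a mean of at least 8, and the other 5 were *Psma8*, *Psmb11*, *Psmc3ip*, *Psmg3* and *Psmg4*. *Psma8* and *Psmb11*, known as subunits of testis and thymus, had means of 5.55 and 5.64, near the 40th percentile of all probesets at 5.64. Counts over genes include dim probesets, so shares are also given over the 6814 genes with a mean of at least 8. In whole tissue, fewer cells of a type and less RNA per cell cannot be told apart.

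In both strains proteasome genes were on balance higher at ‘peak’ BP. In BPH/2J, 18 of 48 genes passed as higher and 0 as lower, whereas 4.63% of all genes passed as higher and 5.61% as lower. At an unadjusted p under 0.05 in limma, 31 were higher and 1 was lower. Of all 19937 genes 2446 were higher at that threshold, and of the 6814 with a mean of at least 8 it was 1503. In BPN/3J, 22 of 48 genes passed as higher and 0 as lower, against 13.9% and 14.7% of all genes. Unadjusted, 28 were higher and 1 was lower, which in both strains was *Psmb11*. In BPN/3J 3987 of all genes were higher without adjustment, and 2333 of those with a mean of at least 8. After adjustment, 9.8% of genes with a mean of at least 8 passed as higher in BPH/2J and 24.3% in BPN/3J. All 18 and 22 passing members were in this class. Over the 48 genes the median difference came to 0.36 for BPH/2J and to 0.30 for BPN/3J, and over all genes it was -0.02 and -0.04. Over the 43 brighter members it was 0.37 and 0.41, and over all genes of that brightness 0.02 and 0.11. All ‘peak’ arrays lay above all ‘trough’ arrays for 23 members in BPH/2J and 22 in BPN/3J, compared with 9.07% and 12.5% of all genes. All of these members had a mean of at least 8. Of the 6814 genes of that brightness, 1175 were separated in this way in BPH/2J and 1533 in BPN/3J. The log2 of the summed signal of 9 hypothalamic marker genes also separated the times in BPH/2J. It was 12.40 to 12.42 at ‘trough’ and 12.73 to 13.52 at ‘peak’ BP, and overlapped in BPN/3J. The means of these genes ran from 6.25 to 12.14, and the brightest weigh most in such a sum. The part of these markers in the difference of proteasome genes was not tested.

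**Figure D1:**
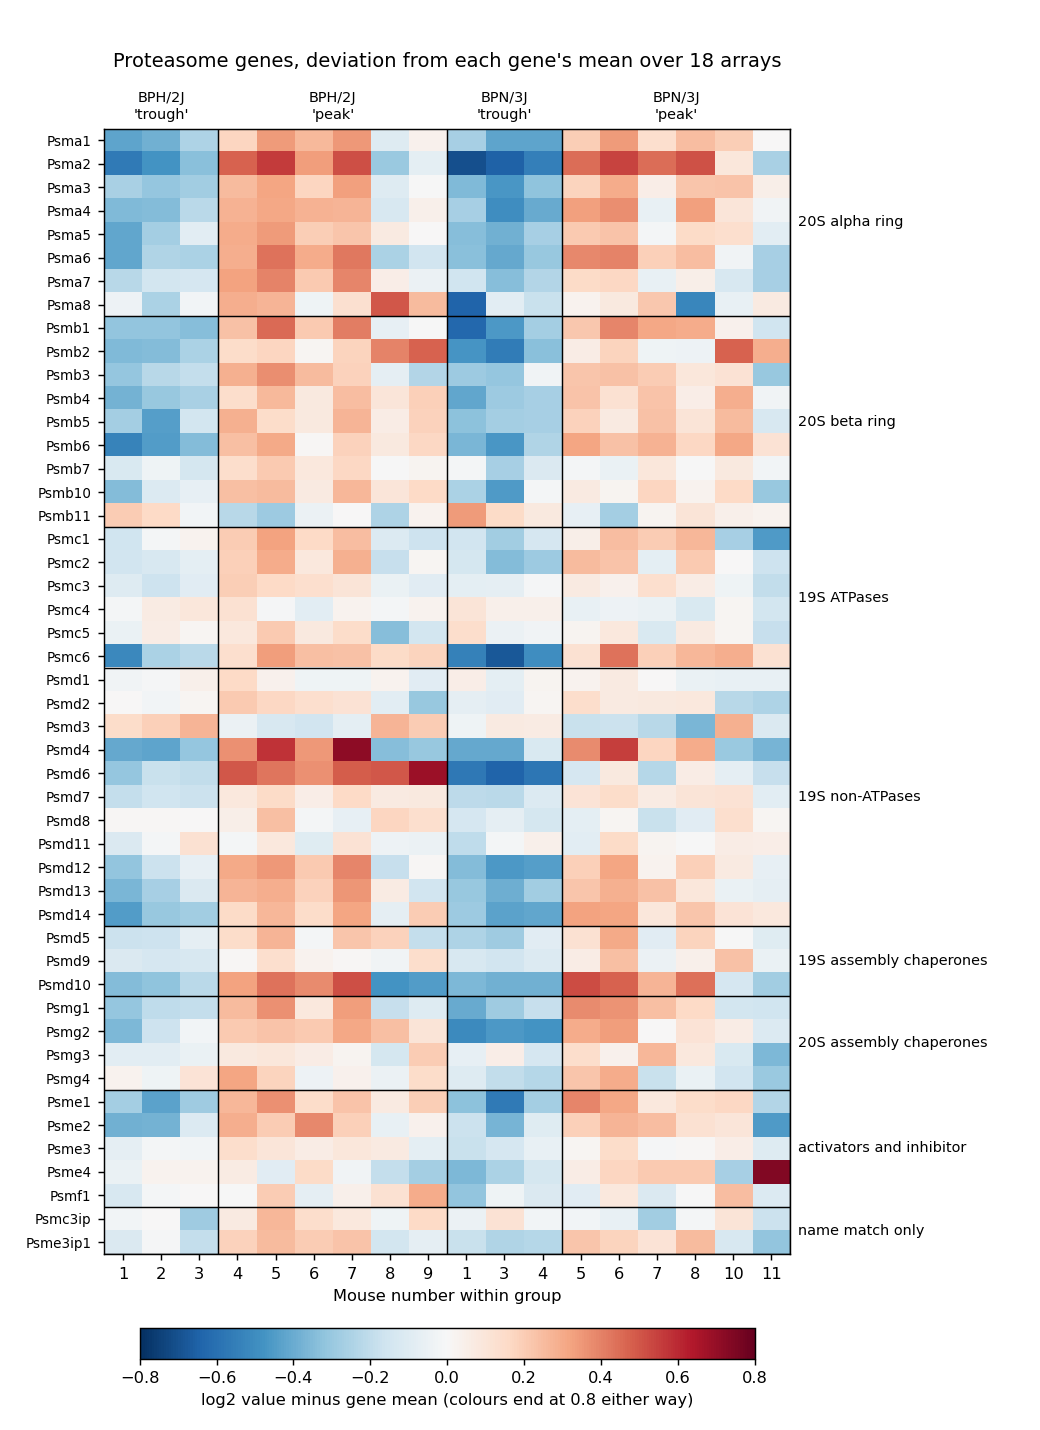
Deviation of each log2 value from the mean of its gene over 18 arrays, with 1 row per gene ordered by its place in the proteasome and 1 column per mouse. Most rows of the 20S rings are blue in the 6 ‘trough’ arrays and red in the ‘peak’ arrays, and most ATPase rows are pale.

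The comparisons of ‘peak’ with ‘trough’ BP in the 2 strains take their means from different arrays. The model of the 4 groups gives each gene 1 estimate of its spread, so its SE is the same in both strains. Passing in 1 strain is thus not independent of passing in the other. Most calls were common to both. The overlap of calls was counted for the members only, so no share over all genes stands beside it. In both strains 17 genes passed, which is 94.4% of the BPH/2J calls and 77.3% of the BPN/3J calls. They were *Psma1* to *Psma5*, *Psmb1*, *Psmb2*, *Psmb4*, *Psmb5*, *Psmb6*, *Psmc6*, *Psmd6*, *Psmd7*, *Psmd13*, *Psmd14*, *Psme1* and *Psmg2*. *Psma7* passed in BPH/2J alone, and *Psma6*, *Psmc2*, *Psmd12*, *Psme4* and *Psmg1* in BPN/3J alone, although no member passed the test of the difference between the strains given below. Across the 48 genes the differences of the strains correlated at r = 0.86, and across all genes at 0.72, where genes are not independent replicates. The remaining 25 members passed in neither strain.

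When single arrays were left out, between 9 and 21 genes passed as higher in BPH/2J. There were 9 without BPH/2J ‘trough’ mouse 1 and 10 without mouse 2, where 1.17% and 2.08% of all genes passed as higher. Without ‘peak’ mouse 8 or 9 there were 21, with all 18 calls kept. *Psma1*, *Psma3*, *Psmb4*, *Psmb5*, *Psmb6*, *Psmc6*, *Psmd6* and *Psmd14* passed in BPH/2J whichever array was left out. In BPN/3J 16 of the 22 genes did so.

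The 20S core held 11 of the 18 calls in BPH/2J and 11 of the 22 in BPN/3J, all of them higher at ‘peak’ BP. The median differences of its 17 genes were 0.46 and 0.47. For the 14 genes of the standard core, that is without *Psma8*, *Psmb11* and the interferon-induced *Psmb10*, the medians were 0.48 and 0.53, and the difference was above 0 for all 14 in both strains. On each array the median deviation of the 17 core genes from their means was taken. The BPH/2J ‘trough’ arrays lay at -0.35 to -0.22 and the ‘peak’ arrays at -0.003 to 0.31. For BPN/3J the limits were -0.41 and -0.27 at ‘trough’ and -0.03 and 0.23 at ‘peak’ BP, so that the times did not overlap.

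**Figure D2:**
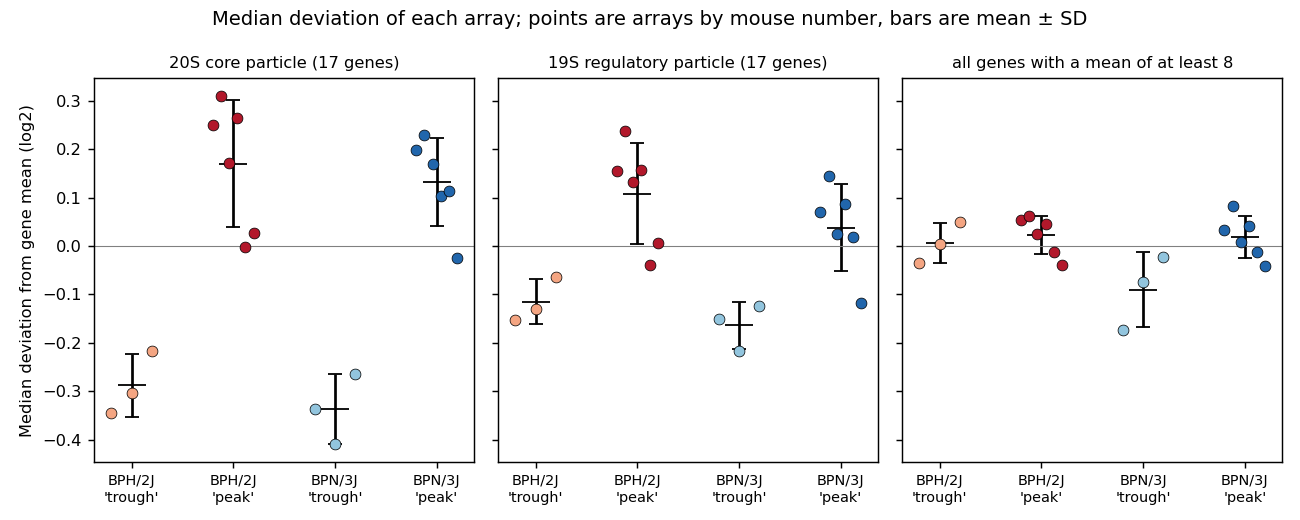
Median deviation from the gene mean (log2) on each array, for the 20S core, the 19S regulatory particle and all genes with a mean of at least 8. Points are arrays in the order of mouse number, and bars are the mean ± SD of a group. The groups separate by time in both strains for the core and, narrowly, for the regulatory particle. The arrays of the right panel lie between -0.17 and 0.08.

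Within the beta ring, *Psmb6* encodes the subunit with caspase-like activity. In BPH/2J its log2 values were 10.03, 10.11 and 10.22 in the ‘trough’ mice and ran from 10.57 over a median of 10.74 to 10.86 in the ‘peak’ mice. The BPN/3J mice had 10.19, 10.10 and 10.32 at ‘trough’ BP and 10.68, 10.82 and 10.88 (lowest, median, highest) at ‘peak’ BP. The times did not overlap in either strain. The differences were 0.61 ± 0.08 in BPH/2J (adjusted p = 0.00068) and 0.59 ± 0.08 in BPN/3J (adjusted p = 0.000322). *Psmb5*, the subunit with chymotrypsin-like activity, differed by 0.46 ± 0.09 and 0.41 ± 0.09, with adjusted p-values of 0.00558 and 0.00582. The third catalytic subunit, *Psmb7* with trypsin-like activity, did not pass, with 0.20 ± 0.07 (adjusted p = 0.105) and 0.15 ± 0.07 (adjusted p = 0.152).

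The structural beta subunits *Psmb1*, *Psmb2* and *Psmb4* passed in both strains. *Psmb2* had log2 values of 8.90, 8.91 and 9.002 in the BPH/2J ‘trough’ mice and 9.27, 9.43 and 9.73 (lowest, median, highest) in the ‘peak’ mice. Its BPN/3J values were 8.78, 8.69 and 8.92 at ‘trough’ BP and 9.21, 9.37 and 9.72 at ‘peak’ BP. Again no ‘trough’ array reached the ‘peak’ arrays, and the differences were 0.55 ± 0.12 (adjusted p = 0.00878) and 0.61 ± 0.12 (adjusted p = 0.00251). Without BPH/2J ‘trough’ mouse 1 the first had an adjusted p of 0.0541. *Psmb1* had 8.99, 8.99 and 8.96 in the BPH/2J ‘trough’ mice and 9.24, 9.53 and 9.76 in the ‘peak’ mice. The BPN/3J values were 8.68, 8.85 and 9.03 and then 9.15, 9.56 and 9.69. The groups were apart in both strains, by 0.53 ± 0.13 (adjusted p = 0.0192) and 0.63 ± 0.13 (adjusted p = 0.00384). *Psmb4* differed by 0.48 and 0.47, and *Psmb3* by 0.37 and 0.30 without passing. *Psmb10*, which replaces *Psmb7* in the immunoproteasome, had 0.36 ± 0.11 (adjusted p = 0.0574) and 0.26 ± 0.11 (adjusted p = 0.0886).

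In the alpha ring, which gates the entry to the barrel, 6 of 8 genes passed in each strain. The largest difference was that of *Psma2*. Its log2 values were 9.53, 9.62 and 9.76 in the BPH/2J ‘trough’ mice and 9.80, 10.50 and 10.66 (lowest, median, highest) in the ‘peak’ mice. In BPN/3J they were 9.40, 9.45 and 9.55 and then 9.84, 10.55 and 10.64. The times did not overlap, although BPH/2J ‘peak’ mouse 8 at 9.80 was close to the ‘trough’ mice. The differences were 0.71 ± 0.19 (adjusted p = 0.0303) and 0.93 ± 0.19 (adjusted p = 0.00382). The call in BPH/2J was lost in 6 of the 18 fits that leave out an array, with an adjusted p of up to 0.144. *Psma1*, *Psma3*, *Psma4* and *Psma5* differed by 0.44 to 0.52 in BPH/2J and by 0.43 to 0.56 in BPN/3J, and passed in both. *Psma7* passed in BPH/2J with 0.39 ± 0.11 (adjusted p = 0.0395) and had 0.23 ± 0.11 in BPN/3J, and *Psma6* passed in BPN/3J with 0.50 ± 0.16 (adjusted p = 0.0326) and had 0.47 ± 0.16 in BPH/2J. *Psma8*, the alpha subunit known from germ cells, had 0.34 ± 0.15 and 0.27 ± 0.15 and passed in neither.

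The 19S regulatory particle had fewer calls than the core, with 5 of 17 genes in BPH/2J and 7 in BPN/3J and a median difference of 0.19 in both strains. A difference between the particles was not tested. The array medians of its deviations were between -0.15 and -0.06 for the BPH/2J ‘trough’ arrays and between -0.04 and 0.24 for the ‘peak’ arrays. For BPN/3J the limits were -0.217 and -0.123 at ‘trough’ BP and -0.118 and 0.146 at ‘peak’ BP. The times were thus close in both strains but did not overlap.

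Of the 6 ATPases, which form the ring that unfolds substrates, *Psmc6* had the largest difference in both strains. It had log2 values of 9.42, 9.69 and 9.72 in the BPH/2J ‘trough’ mice and 10.07, 10.14 and 10.27 (lowest, median, highest) in the ‘peak’ mice. BPN/3J mice had 9.40, 9.26 and 9.45 and then 10.06, 10.17 and 10.37. All 12 ‘peak’ arrays were above all 6 ‘trough’ arrays. The differences were 0.54 ± 0.09 (adjusted p = 0.00179) and 0.81 ± 0.09 (adjusted p = 9.69e-05). *Psmc2* differed by 0.24 ± 0.12 (adjusted p = 0.231) and by 0.33 ± 0.12 (adjusted p = 0.0425), and the second call was lost in 11 of the 18 fits that leave out an array. *Psmc1*, *Psmc3*, *Psmc4* and *Psmc5* had differences between -0.13 and 0.19 in the 2 strains, none of which passed.

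Among the other 11 subunits of the 19S particle, *Psmd6*, *Psmd7*, *Psmd13* and *Psmd14* passed in both strains and *Psmd12* in BPN/3J. *Psmd6*, a scaffold subunit of the lid, had log2 values of 9.50, 9.63 and 9.61 in the BPH/2J ‘trough’ mice and 10.18, 10.30 and 10.49 (lowest, median, highest) in the ‘peak’ mice. The values in BPN/3J were 9.24, 9.17 and 9.24 and then 9.58, 9.71 and 9.89. The times did not overlap within a strain, and the differences were 0.72 ± 0.09 (adjusted p = 0.000407) and 0.52 ± 0.09 (adjusted p = 0.000968). *Psmd14*, the deubiquitinase that removes ubiquitin chains from substrates, differed by 0.51 ± 0.09 and 0.57 ± 0.09, with adjusted p-values of 0.00259 and 0.000769. Its partner in the lid, *Psmd7*, differed by 0.27 and 0.26. *Psmd13* differed by 0.42 and 0.44, and *Psmd12* by 0.36 ± 0.12 (adjusted p = 0.0697) and 0.54 ± 0.12 (adjusted p = 0.0054). The large scaffold subunits *Psmd1* and *Psmd2* had differences between -0.01 and 0.04, and *Psmd8* and *Psmd11* between 0.003 and 0.09. Below 0 in both strains were *Psmc4*, *Psmc5* and *Psmd3*, the last with -0.20 ± 0.12 (adjusted p = 0.369) and -0.16 ± 0.12 (adjusted p = 0.333).

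**Figure D3:**
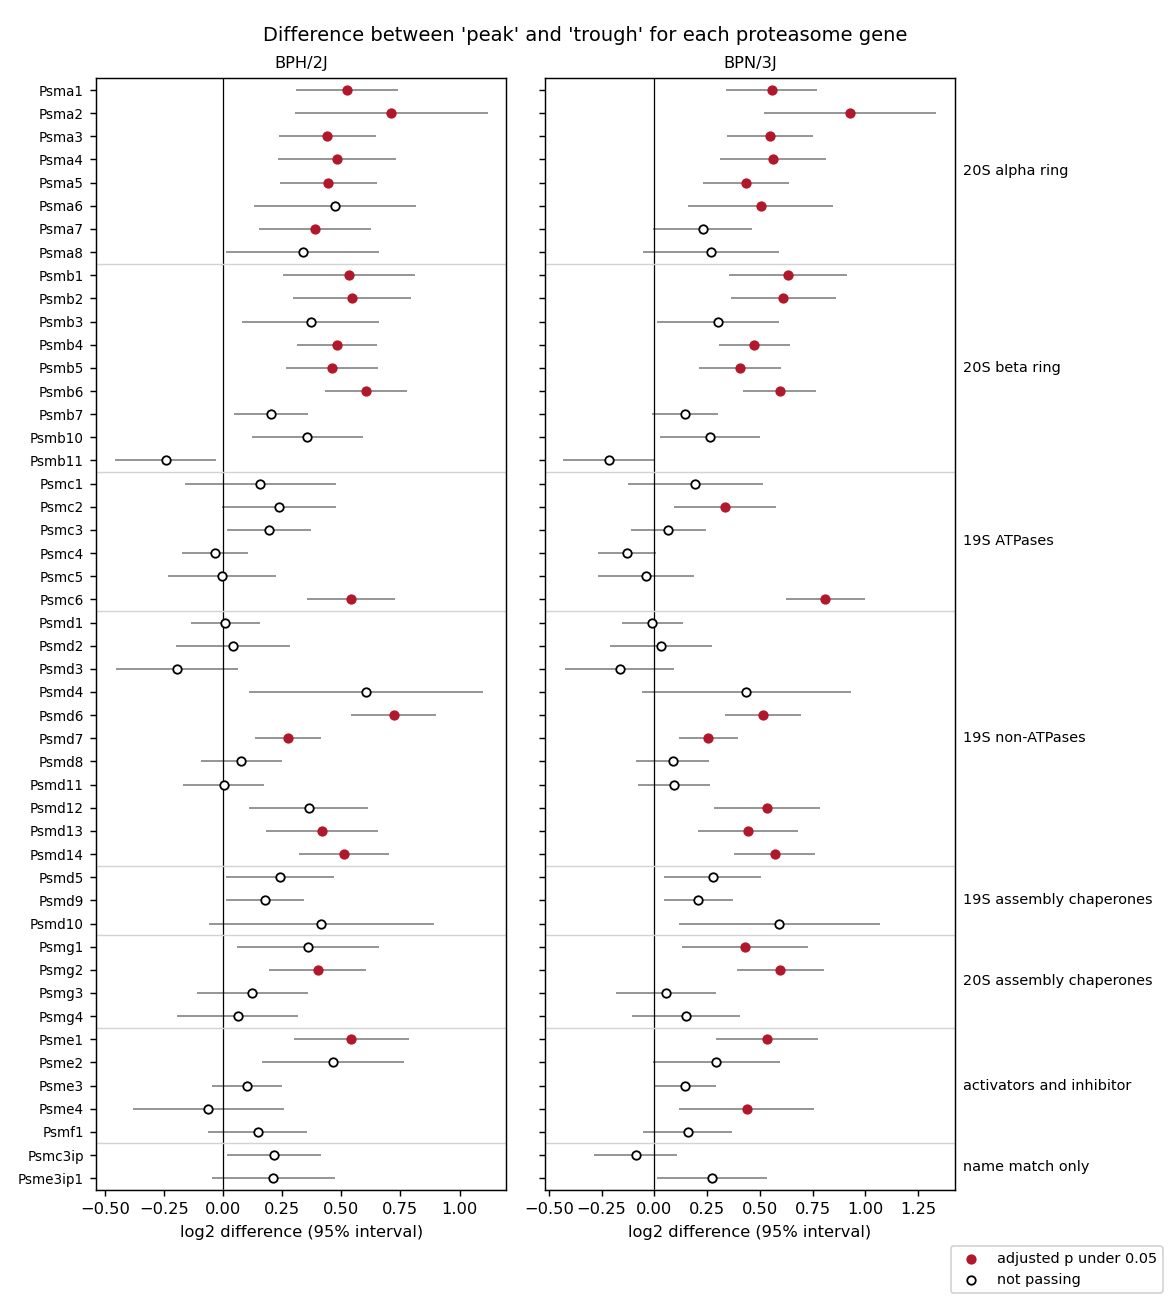
Log2 difference between ‘peak’ and ‘trough’ BP for each of the 48 genes in BPH/2J (left) and BPN/3J (right), with 95% intervals of the limma fit. Filled points passed at an adjusted p under 0.05, all of them to the right of 0, and the rows of the 20S rings hold 11 filled points in each strain.

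Assembly chaperones were mixed. *Psmg2*, which with *Psmg1* starts the alpha ring, had log2 values of 7.89, 8.08 and 8.22 in the BPH/2J ‘trough’ mice and 8.35, 8.47 and 8.55 (lowest, median, highest) in the ‘peak’ mice. Those of BPN/3J were 7.74, 7.79 and 7.77 and then 8.14, 8.33 and 8.58. The times were apart in both strains, by 0.40 ± 0.10 (adjusted p = 0.0171) and 0.60 ± 0.10 (adjusted p = 0.000917). *Psmg1* differed by 0.36 ± 0.14 (adjusted p = 0.132) and by 0.43 ± 0.14 (adjusted p = 0.0364). *Psmg3* and *Psmg4* had differences of 0.06 to 0.15. The chaperones of the 19S base *Psmd5*, *Psmd9* and *Psmd10* had differences of 0.18 to 0.59, none of which passed.

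Of the activators, *Psme1* encodes a subunit of the interferon-induced ring that opens the core without ATP. Its log2 values were 9.04, 8.88 and 9.03 in the BPH/2J ‘trough’ mice and 9.38, 9.52 and 9.68 (lowest, median, highest) in the ‘peak’ mice. In BPN/3J they were 8.98, 8.74 and 9.04 and then 9.07, 9.47 and 9.70. The times did not overlap, with the BPN/3J groups close to each other. The differences were 0.54 ± 0.12 (adjusted p = 0.00803) and 0.53 ± 0.12 (adjusted p = 0.00453), and without BPH/2J ‘trough’ mouse 2 the first had an adjusted p of 0.0504. Its partner *Psme2* had 0.47 ± 0.14 (adjusted p = 0.0509) and 0.29 ± 0.14 (adjusted p = 0.131). The nuclear activator *Psme3* and the inhibitor *Psmf1* had differences of 0.10 to 0.16 and did not pass.

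Mice at ‘peak’ BP were not alike. BPH/2J mice 8 and 9 and BPN/3J mice 10 and 11, which have the highest numbers in the titles, had the lowest median deviations over the 48 genes of their groups, at -0.04 and 0.02 and at 0.06 and -0.11. With BPH/2J mice 4 to 7 alone at ‘peak’ BP, 31 genes passed as higher and *Psmd3* as lower, and 12.4% of all genes passed as higher. With mice 8 and 9 alone 3 members passed, *Psmb2*, *Psmb6* and *Psmd6*, against 0.782% of all genes, and the median difference was 0.15. In BPN/3J, mice 5 to 8 gave 32 higher members and a median of 0.41, and mice 10 and 11 gave 7 and a median of 0.18. Over all genes, 21.5% and 3.12% passed as higher in these fits, both smaller with the higher-numbered mice. The 7 were *Psma1*, *Psma3*, *Psmb2*, *Psmb6*, *Psmc6*, *Psmd6* and *Psmd14*. The fits with the higher-numbered mice alone hold fewer ‘peak’ mice, so their counts are not directly comparable with those of the lower-numbered mice. With a term for the higher-numbered mice 28 members passed as higher in BPH/2J, and 9.67% of all genes. The labels name no batch, and the part of handling in this split was not tested.

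The mean of the lower-numbered minus that of the higher-numbered ‘peak’ mice was above 0 for 40 of 48 genes in BPH/2J and for 36 in BPN/3J, with medians of 0.15 and 0.13. This count was not made over all genes. The split was chosen with earlier results of these data known, so the count over the same genes is no independent support for it. The median deviation of all genes with a mean of at least 8 was also lower in the higher-numbered mice. It was -0.01 and -0.04 in BPH/2J mice 8 and 9, against 0.03 to 0.06 in mice 4 to 7. In BPN/3J it was -0.01 and -0.04 in mice 10 and 11, against 0.008 to 0.08 in mice 5 to 8. The genes described here were chosen after their values were seen. Averaged over the strains, the lower-numbered minus higher-numbered difference was largest for *Psmd4* and *Psmd10*, at 0.75 each. Next were *Psma2* at 0.61 and *Psma6* at 0.51. *Psmd10*, a chaperone also known as gankyrin, had log2 values of 9.58 to 9.77 in BPH/2J mice 4 to 7 and 8.78 and 8.81 in mice 8 and 9, which lie below the ‘trough’ mice at 8.91, 8.94 and 9.05. The BPN/3J mice had 9.53 to 9.78 in mice 5 to 8, and 9.13 and 8.98 in mice 10 and 11. *Psmd4*, a ubiquitin receptor of the 19S particle, had 10.17 to 10.54 in BPH/2J mice 4 to 7 and 9.48 and 9.52 in mice 8 and 9, and its ‘trough’ mice had 9.42, 9.41 and 9.52. *Psmd3* and *Psmb2* had the most negative averages, at -0.33 and -0.32. *Psmb2* had 9.27 to 9.43 in BPH/2J mice 4 to 7 and 9.65 and 9.73 in mice 8 and 9. The BPN/3J mice gave the same order for *Psmb2*, with 9.21 to 9.43 in mice 5 to 8 and 9.72 and 9.55 in mice 10 and 11.

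**Figure D4:**
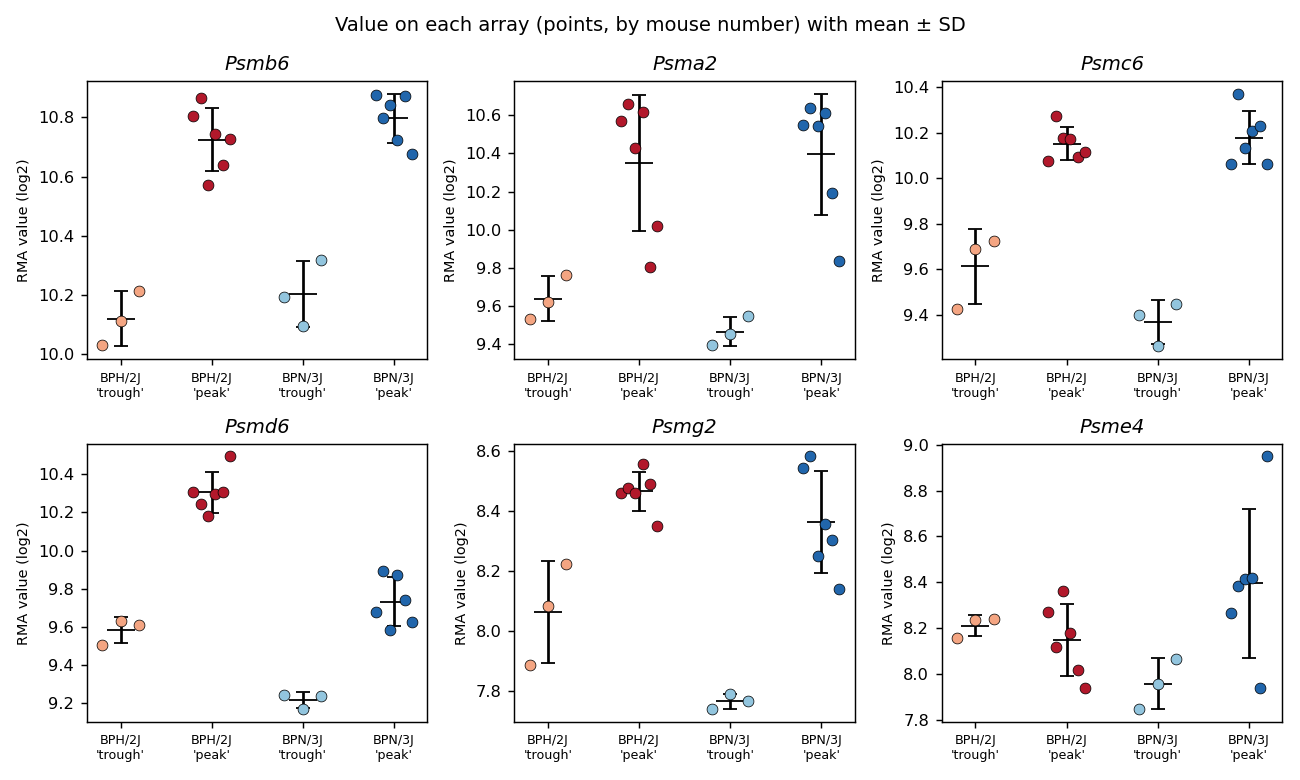
Log2 values on each array (points, in the order of mouse number) with the mean ± SD of each group, for 6 genes with their own vertical axes. For *Psma2* the last 2 points of each ‘peak’ group fall towards the ‘trough’ groups, for *Psmd6* the BPH/2J ‘peak’ mice are above all others, and for *Psme4* the times overlap in both strains.

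Between the strains, 1 of 48 genes passed at ‘peak’ BP, *Psmd6*, which was higher in BPH/2J. Of all genes, 0.697% passed as higher and 0.687% as lower. The values of *Psmd6* given above did not overlap between the strains at either time. The difference at ‘peak’ BP was 0.57 ± 0.07 (adjusted p = 9.5e-05), a fold of 1.49. With the lower-numbered ‘peak’ mice alone it was 0.50 (adjusted p = 0.00442), and with the higher-numbered alone 0.72 (adjusted p = 0.0534). It passed whichever array was left out. The next smallest p-values were those of *Psma7* at 0.24 ± 0.09 and *Psmc3ip* at 0.19 ± 0.08, with adjusted p-values of 0.348 and 0.384. The median over the 48 genes was 0.05, against 0.01 over all genes.

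At ‘trough’ BP 0 of 48 genes differed between the strains in limma after adjustment, where 0.567% of all genes did. The median difference over the 48 genes was 0.07. Over the 6814 genes with a mean of at least 8 it was 0.10, and 5426 of them were above 0. Of those 6814 genes 718 had an unadjusted p under 0.05 in limma, and 649 of the 718 were higher in BPH/2J. At an unadjusted p under 0.05 there were 3 members, against 11.8% of all genes. They were *Psmd6* with 0.37 ± 0.10 (adjusted p = 0.155), *Psmg2* with 0.30 ± 0.11 (adjusted p = 0.385) and *Psmc6* with 0.24 ± 0.10 (adjusted p = 0.431), each higher in BPH/2J. With array weights 9 members passed, these 3 among them, against 25.2% of all genes, in a fit that gave BPN/3J ‘trough’ mouse 3 the weight 9.44, mouse 1 the weight 0.41 and mouse 4 the weight 0.64. The median interval of a member reached 0.27 either side of its difference, so that smaller differences may not be detectable with 3 mice per group.

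**Figure D5:**
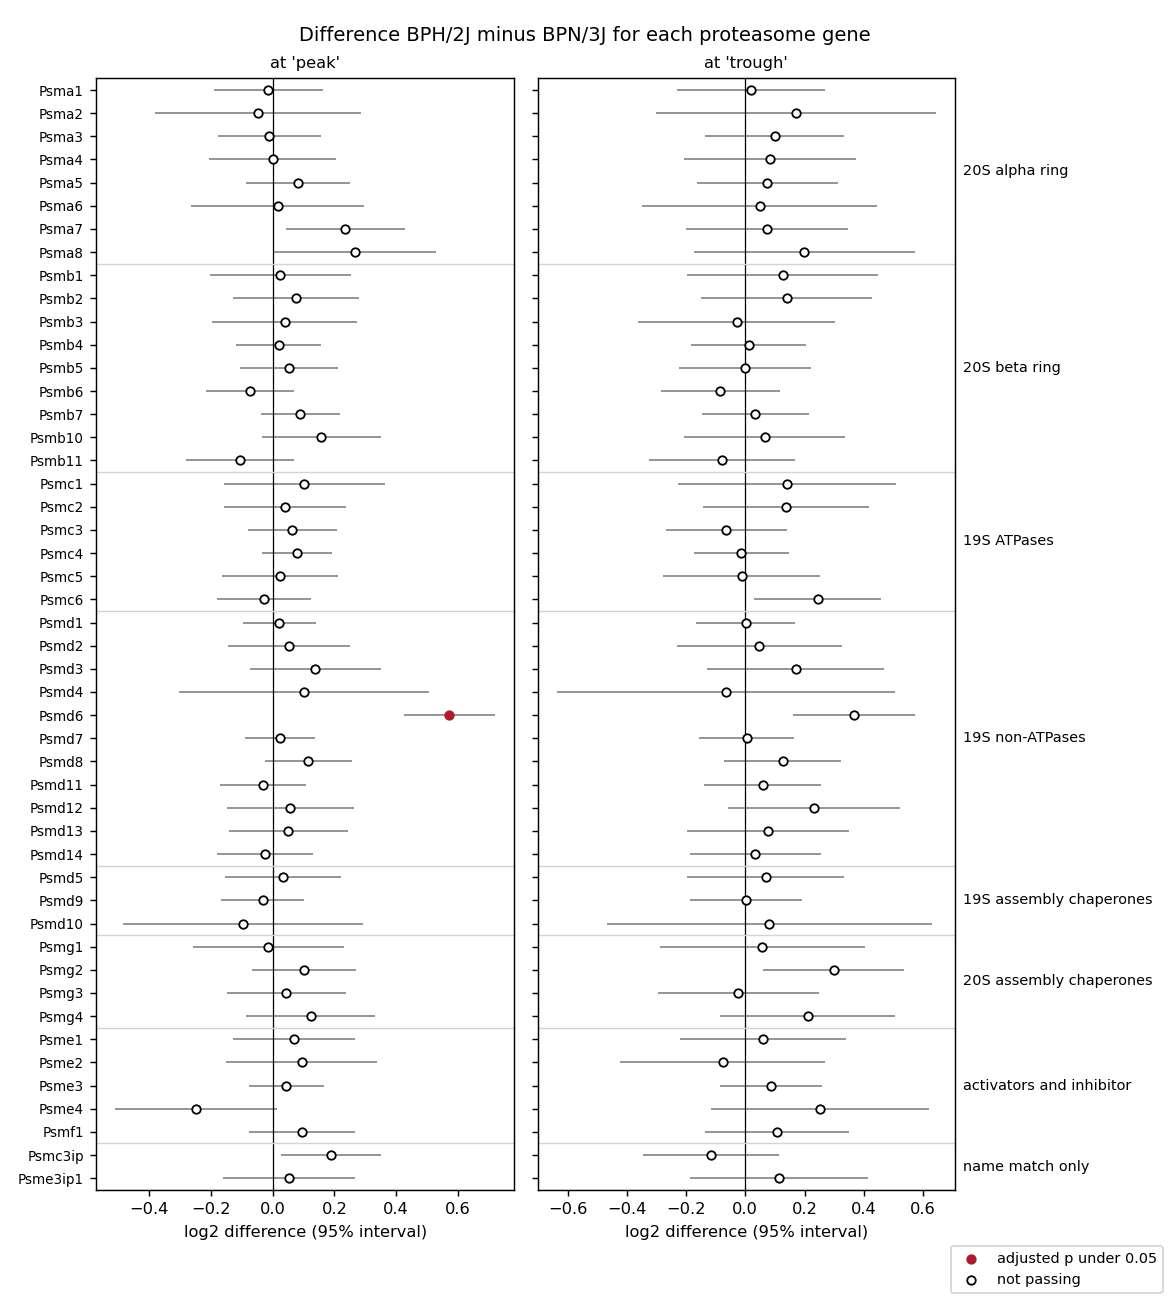
Log2 difference BPH/2J minus BPN/3J for each of the 48 genes at ‘peak’ (left) and at ‘trough’ BP (right), with 95% intervals of the limma fit. *Psmd6* is the filled point at 0.57 on the left, and on the right no gene passed.

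The study's measure *aFD* is the fold of *d*, the strain difference at ‘peak’ minus that at ‘trough’ BP, with its sign. No member reached a size of 1.5, which 1.2% of all genes did, and the largest, for *Psme4*, was 1.41. In limma 0 of 48 members passed for *d*, as for all genes (0.0%). At an unadjusted p under 0.05 there were 3 members, and 8.23% of all genes. *Psme4*, a nuclear activator with a role in DNA repair and histone turnover, had log2 values of 8.16, 8.24 and 8.24 in the BPH/2J ‘trough’ mice and 7.94, 8.15 and 8.36 (lowest, median, highest) in the ‘peak’ mice. BPN/3J mice had 7.85, 7.96 and 8.07 and then 7.94, 8.40 and 8.95. The times overlapped in both strains, and *d* was -0.50 ± 0.21 (adjusted p = 0.596). Its call in BPN/3J, 0.44 ± 0.15 (adjusted p = 0.0437), was lost in 12 of the 18 fits that leave out an array. *Psmc6* had -0.27 ± 0.12 for *d*, and its ‘trough’ values lay lower in BPN/3J.

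The third was *Psmc3ip*, a recombination factor that is no proteasome subunit, with 0.30 ± 0.13 for *d*. Its log2 values were 6.20, 6.23 and 5.94 in the BPH/2J ‘trough’ mice and 6.19, 6.34 and 6.48 (lowest, median, highest) in the ‘peak’ mice. Those of BPN/3J were 6.17, 6.34 and 6.20 and then 5.95, 6.18 and 6.33, and the times overlapped in both strains. The median of *d* over the 48 genes was -0.03, and without the name matches also -0.03. Over all genes it was -0.003, and over the 6814 genes with a mean of at least 8 it was -0.09, with 5050 below 0. Of these 6814 genes 456 had an unadjusted p under 0.05 in limma for *d*, and 19 of the 456 were above 0. The median deviations of genes of that brightness on the BPN/3J ‘trough’ arrays were -0.17, -0.07 and -0.02. The median interval of a member reached 0.33 either side of its *d*. For *Psmb6* the interval ran from -0.23 to 0.26, which leaves room for a difference between the strains of that size.

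Of the proteins that work with the proteasome under other names, 7 of the list had a single-symbol probeset. In BPH/2J 2 of the 7 were higher at ‘peak’ BP and in BPN/3J 5, with medians of 0.29 and 0.47 and 0 lower. All 7 had a mean of at least 8, where 9.8% and 24.3% of all genes passed as higher. *Sem1*, the smallest subunit of the 19S lid, had log2 values of 8.49 to 8.70 at ‘trough’ and 9.10 to 9.66 at ‘peak’ BP in BPH/2J. The difference was 0.83 ± 0.13 (adjusted p = 0.00119) in BPH/2J and 0.62 ± 0.13 (adjusted p = 0.00344) in BPN/3J. The proteasome-bound deubiquitinase *Usp14* differed by 0.34 ± 0.09 and 0.50 ± 0.09 and passed in both strains. *Uchl5*, another one, had 9.19 to 9.39 at ‘trough’ and 9.62 to 9.85 at ‘peak’ BP in BPN/3J, a difference of 0.47 ± 0.09 (adjusted p = 0.00246), and had 0.29 ± 0.09 in BPH/2J (adjusted p = 0.0572). The maturation factor of the core *Pomp* and the 19S-bound thioredoxin *Txnl1* passed in BPN/3J with 0.29 and 0.52.

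Shuttle factors and partners of the p97 ATPase, which bring substrates to the proteasome, passed about as often as other genes of their brightness. Of 10 genes, all with a mean of at least 8, 1 was higher and 1 lower in BPH/2J, and 3 were higher and 1 lower in BPN/3J, with medians of 0.02 and 0.08. Of all genes of that brightness, 9.8% were higher and 10.8% lower in BPH/2J, and 24.3% and 7.73% in BPN/3J. *Ubqln4* fell, with log2 values of 8.50 to 8.61 at ‘trough’ and 7.97 to 8.16 at ‘peak’ BP in BPH/2J. Its difference was -0.48 ± 0.10 (adjusted p = 0.00663) in BPH/2J and -0.42 ± 0.10 (adjusted p = 0.00706) in BPN/3J. *Ufd1* was higher by 0.54 and 0.61. *Faf1* differed by 0.49 ± 0.09 in BPN/3J (adjusted p = 0.00187), with 8.05 to 8.29 at ‘trough’ and 8.53 to 8.83 at ‘peak’ BP, and *Faf2* by 0.46. *Vcp*, which encodes p97 itself, had -0.003 and 0.01. Of the ubiquitin genes and their activating enzymes only *Uba6* had a single-symbol probeset, with 0.18 ± 0.18 and 0.49 ± 0.18 (adjusted p = 0.0572).

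Of 9 genes known to control proteasome genes or its placement, 1 was higher and 1 lower in BPH/2J, and 4 were higher and 1 lower in BPN/3J. Of all genes with a mean of at least 8, 9.8% were higher and 10.8% lower in BPH/2J, and 24.3% and 7.73% in BPN/3J. With 6 of the 9 in that class, the counts in BPH/2J are close to these shares. *Nfe2l1* encodes the factor that induces proteasome genes when degradation is impaired. It was chosen after its values were seen. Its log2 values were 10.31 to 10.36 at ‘trough’ and 9.97 to 10.17 at ‘peak’ BP in BPH/2J, and the difference was -0.29 ± 0.08 (adjusted p = 0.0218) in BPH/2J and -0.26 ± 0.08 (adjusted p = 0.0196) in BPN/3J. The related *Nfe2l2* and the enzyme *Ngly1*, which processes the protein of *Nfe2l1*, were higher in BPN/3J by 0.32 and 0.44. *Zfand2a*, a stress-induced protein that binds the proteasome, had 9.38 to 9.49 at ‘trough’ and 9.96 to 10.05 at ‘peak’ BP in BPH/2J, and differed by 0.58 ± 0.08 (adjusted p = 0.000757) and by 0.36 ± 0.08 in BPN/3J (adjusted p = 0.00567). Between the strains at ‘peak’ BP *Akirin2*, which carries proteasomes into the nucleus, was higher in BPH/2J by 0.28 ± 0.07 (adjusted p = 0.0437), with 9.19 to 9.41 against 8.84 to 9.14.

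More than 1 probeset exists for 5 members, and the brightest does not always speak for the others. Which of them lies at the gene and which at a processed copy was not analysed here. Of the 3 probesets of *Psma3*, the brightest passed in both strains, another had 0.41 (adjusted p = 0.0743) in BPH/2J and 0.25 (adjusted p = 0.182) in BPN/3J, and the last passed in both with 0.35 and 0.72. For *Psmb3* the brightest did not pass, and the other passed in BPH/2J with 0.48 (adjusted p = 0.0219). Both probesets of *Psma5* passed in both strains, and neither of *Psmc1* or *Psmd2* in any.

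The promoters of the members, whether or not they passed, were read from RefSeq, as windows of 250 bases before to 50 after the start of each gene on the build GRCm38.p6. A window was found for 40 of the 48 genes, at the first start listed. The 4 motifs searched on both strands, none of which contains another, were CCGGAA, the core bound by ETS factors, TGACNNNGC, the antioxidant response element bound by NFE2L1 and NFE2L2, CCAAT, bound by NF-Y, and CACGTG, the E-box bound by clock factors. The stretches below are the 150 bases upstream of the start of 4 genes that passed in both strains, shown because they hold CCGGAA (*Psmd6*, *Psmc6*) or TGACNNNGC (*Psmb6*, *Psmb5*), which stand in capitals.
Psmd6, chr14:14120946-14121095, minus strand: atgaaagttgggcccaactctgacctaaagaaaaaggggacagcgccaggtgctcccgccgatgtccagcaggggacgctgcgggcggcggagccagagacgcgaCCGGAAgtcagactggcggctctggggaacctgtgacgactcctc
Psmc6, chr14:45329674-45329823, plus strand: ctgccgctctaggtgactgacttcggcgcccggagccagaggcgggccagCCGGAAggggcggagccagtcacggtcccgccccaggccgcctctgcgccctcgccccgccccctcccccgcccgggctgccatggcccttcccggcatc
Psmb6, chr11:70525207-70525356, plus strand: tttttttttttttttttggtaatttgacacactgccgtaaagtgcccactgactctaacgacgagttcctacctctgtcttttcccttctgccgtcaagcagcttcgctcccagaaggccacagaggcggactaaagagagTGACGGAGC
Psmb5, chr14:54617996-54618145, minus strand: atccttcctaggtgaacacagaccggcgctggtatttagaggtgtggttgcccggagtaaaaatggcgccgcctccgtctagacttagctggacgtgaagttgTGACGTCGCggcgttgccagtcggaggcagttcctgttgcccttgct

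In the whole windows CCGGAA occurred in 20 of the 40 members (50%), against 15.2% of the windows of 27025 genes. It was in 10 of the 19 members that passed in at least 1 strain and in 10 of the 21 that passed in neither. TGACNNNGC occurred in 6 of 40 members (15%), and in 12.5% of all windows. These were *Psmb5*, *Psmb6*, *Psmc6*, *Psmd9*, *Psmd12* and *Psme4*, and 5 of the 6 passed in at least 1 strain. CCAAT was in 14 of 40, against 37.9% of all windows, and CACGTG in 4 of 40, against 7.24%. A match describes the letters and shows no binding, and the windows of all genes include genes of every base composition.

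Markers of other cells were compared between the groups. Among 8 neuron markers *Stmn2* was higher at ‘peak’ BP in BPH/2J and *Rbfox3* and *Tubb3* were lower in BPN/3J. The 8 had median differences of -0.05 in BPH/2J and -0.04 in BPN/3J. The log2 of their summed signal was 14.78 to 14.88 at ‘trough’ and 14.80 to 14.99 at ‘peak’ BP in BPH/2J. Sums of the other lists are given in the same way. Oligodendrocyte markers (5 genes) had a summed signal of 13.31 to 13.34 at ‘trough’ and 12.83 to 13.27 at ‘peak’ BP in BPH/2J, and 0 of 5 passed. In BPN/3J it overlapped, from 12.95 to 13.30 and from 12.78 to 13.34. Pituitary markers (5 genes) were at 12.60 in BPN/3J ‘trough’ mouse 3 and at 7.56 to 8.95 in all other arrays, and 3 of 5, *Gh*, *Prl* and *Lhb*, were lower at ‘peak’ BP in BPN/3J. Without that mouse 16 members passed as higher in BPN/3J, and 8.07% of all genes. Microglia markers (6 genes) had a summed signal of 10.49 to 10.60 at ‘trough’ and 10.28 to 10.43 at ‘peak’ BP in BPH/2J, which did not overlap, with *P2ry12* higher and *Csf1r* lower and a median difference of -0.17. In BPN/3J the sums overlapped, *Aif1* was higher and *Csf1r* lower. Of 6 endothelial markers 5 were below 0 in BPH/2J, with a median of -0.31, *Flt1* passed as lower, and the sums of 10.88 to 10.96 and of 10.68 to 10.89 overlapped slightly. In BPN/3J their median was -0.04, with *Slco1a4* higher and *Cldn5* lower. Of 6 astrocyte markers *Slc1a2* was lower in BPH/2J and 0 passed in BPN/3J, and of 2 red blood cell markers *Slc4a1* was lower in BPN/3J. Ependymal and choroid plexus markers (6 genes) ran from 8.88 to 13.71 over the arrays and overlapped between all groups. Hypothalamic markers (9 genes) were present on all arrays, and in BPH/2J their sums, given above, lay higher at ‘peak’ BP without overlap. Their median difference there was 0.43, and the neuropeptide genes *Hcrt* with 1.29 ± 0.37 (adjusted p = 0.0409) and *Pmch* with 0.86 ± 0.19 (adjusted p = 0.0104) passed. In BPN/3J the median was -0.24, 0 passed, and the sums of 12.33 to 12.67 at ‘trough’ and 12.08 to 13.23 at ‘peak’ BP overlapped. The part of these cells in the differences of proteasome genes was not tested.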

How the data were processed

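RNA from the hypothalamus of 18 mice was hybridized to 18 arrays. The deposited values, which the authors made by RMA normalization, are log2 intensities of 34760 probesets. Which versions of RMA and limma they used was not stated. RMA puts arrays on 1 scale, so a shift common to all genes cannot be seen.

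Groups were taken from the titles and symbols from the platform annotation, where 21640 probesets carry 1 symbol, 1321 several and 11799 are not listed. Differences were tested with limma 3.58.1 in R 4.3.3 on all 18 arrays (14 residual and 2.94 prior degrees of freedom), after a check on simulated data. Precision is limited by the number of arrays, which carry no read depth.

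Members, lists and alternatives were chosen with earlier results of these data known. Values by array are given for up to 6 members per comparison with the largest passing difference, or the 3 smallest p-values where none passed, and for up to 3 pathway genes. Alternatives were quantile normalization, median centring, no dim probesets, array weights, a trend and robust prior, 2 groups only, a replicate block, the mean of a gene's probesets, subsets of ‘peak’ mice and leaving out each array. Fits without the 2 least correlated arrays and counts for means of at least 8 were added after seeing the data. Figures were drawn with matplotlib 3.10.9 in Python 3.11.15.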

Additional observations from a re-analysis of the deposited data

How the results depend on the processing

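Of the results that answer a comparison, 426 values under alternatives stayed close to the reported ones and 25 moved. Counts of 0 that stayed 0, and medians near 0 that changed sign, were among the 426. A median counted as close within 0.10, and counts of 16 and 29 members against 22 in BPN/3J also counted as close. Leaving out an array of 1 strain cannot change the median difference between the times in the other strain. The 426 thus include values that could not move. The median differences between ‘peak’ and ‘trough’ BP kept their sign under every alternative run. Those of the strain comparisons, which are near 0, did not: the median at ‘peak’ BP was below 0 in 3 alternatives (-0.0226 to -0.0034), that at ‘trough’ BP in 1 (-0.0036, quantile normalization), and that of *d* was above 0 in 5 (0.0016 to 0.0427). In BPH/2J the number of members higher at ‘peak’ BP was 32 with array weights (15.3% of all genes; 2 lower, *Psmb11* and *Psmd3*), 31 with the lower-numbered ‘peak’ mice (1 lower, *Psmd3*), 3 with the higher-numbered ones (median 0.15) and 28 with a term for them (9.67% of all genes). It ran from 9 to 21 when single arrays were left out. In BPN/3J it was 35 with array weights (26.3% of all genes; 4 lower, median 0.42) and 7 with the higher-numbered ‘peak’ mice (median 0.18), and 1 gene was lower with quantile normalization (*Psmc4*) and 1 with the lower-numbered mice (median 0.41). It ran from 16 to 29 when single arrays were left out. The median in BPN/3J was 0.41 without the 2 least correlated arrays and 0.41 over genes with a mean of at least 8. Between the strains at ‘peak’ BP, 0 members passed with the higher-numbered mice and 2 with the term (*Psmd6* and *Psma7*), and at ‘trough’ BP 9 passed with array weights. The fits with the higher-numbered ‘peak’ mice alone hold fewer ‘peak’ mice than those with the lower-numbered ones. The causes were not tested.

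The titles do not say whether equally numbered mice of the 2 strains belong together. Residual correlations between such arrays lay within -0.30 and 0.19, and so few values cannot decide whether the mice were paired. In the fit with the mouse number as a replicate block, on 12 arrays, 0 members were higher at ‘peak’ BP in BPH/2J (0.0% of all genes), 22 in BPN/3J (12.1% of all genes, median 0.43) and 0 differed between the strains at ‘peak’ BP. The 6 members described by array in BPH/2J had differences of 0.48 to 0.73 in that fit, with adjusted p-values from 0.0977 to 0.145. *Psmd6* differed between the strains at ‘peak’ BP by 0.50 in it (adjusted p = 0.17). The block fit keeps only ‘trough’ mice 1 and 3 and ‘peak’ mice 5 to 8 of each strain, which limits what it can detect. In the main fit the small number of ‘trough’ arrays, 3 per strain, limits what can be detected.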
